A study of Mus musculus with 6 samples.

Results

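Collagen genes of the mouse embryo were examined in whole FVB embryos that had developed in diabetic or in normal dams. The members were chosen by name alone, as the probe sets (groups of short probes that each report 1 signal) assigned by the platform annotation to exactly 1 symbol made of Col, a number, a and a number. This rule gave 82 probe sets for 42 collagen genes, out of 34958 probe sets and 18194 genes with 1 symbol on the array. They comprised 11 genes of the fibrillar types, 6 genes of type IV, which builds basement membranes, and 25 genes of other types.

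The diabetes-exposed group held 3 pools of embryos of embryonic day 10.5. Their FVB dams, aged 7 to 9 weeks when diabetes was induced, had received 2 injections of streptozotocin (STZ), a toxin of insulin-producing beta cells, at 100 mg/kg each and had blood glucose above 250 mg/dl. The control group held 3 pools of embryonic day 10.5 embryos of normal FVB dams. Each pool combined 3 embryos, each of a different pregnancy, and all embryos were morphologically normal, so that a change in malformed embryos only is outside these data. RNA of each pool was hybridised to 1 Affymetrix expression array, giving 6 arrays, and the values are linear signals without a physical unit. In whole embryos, fewer cells of a type and less RNA per cell cannot be told apart.

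Collagens are extracellular proteins of 3 chains wound into a triple helix. Fibrillar collagens (types I, II, III, V, XI, XXIV and XXVII) assemble into the fibres of connective tissue and cartilage, type IV forms the sheet-like network under epithelia and around vessels, and the remaining types coat fibrils, form beaded filaments or short networks, anchor basement membranes or span the cell membrane. Chains are hydroxylated and folded in the endoplasmic reticulum, exported as procollagen, trimmed outside the cell and cross-linked. At mid-gestation these genes are transcribed mainly in mesenchyme, the notochord, forming cartilage and vessel walls, and in epithelia.

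The arrays of both groups had been scaled to the same trimmed mean signal of about 500, but median signals were 74.1 to 78.9 in diabetes-exposed pools and 82.5 to 103.3 in control pools. Ratios of 3′ signal to signal further 5′ also moved with the groups. They were read in spiked transcripts, which are not embryo RNA, and in actin. The ratio of 3′ to middle signal of the spiked bacterial poly-A transcripts was 3.47 to 7.00 in diabetes-exposed pools and 2.07 to 2.52 in control pools, and the 3′ to 5′ ratio of actin was 3.09 to 10.3 in diabetes-exposed pools and 1.71 to 2.19 in control pools. Diabetes-exposed replicate 2 lay nearest to the controls on both ratios. A fit with the spike ratio as a covariate is therefore given beside the collagen results, and the part of the ratio in any collagen difference was not tested beyond that fit. Since the ratio did not overlap between the groups, that fit separates the ratio from the group poorly. A call can be lost in it through a wider standard error alone.

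Collagen transcripts were lower in diabetes-exposed pools in all 3 classes. Of the 35 collagen genes that passed the filter on dim probe sets, 18 (51.4%) were lower in diabetes-exposed than in control pools at an adjusted p under 0.05 (limma on log2 signals), against 19.9% of all tested genes that were lower. None was higher, against 17.6% of all tested genes (limma gave 0 collagen genes higher at an unadjusted p under 0.05 as well, and Welch's test gave 0). At least 2-fold lower were 12 of them, against 6.01% of all tested genes. In 27 of the 35 genes every diabetes-exposed pool lay below every control pool, against 26.5% of all tested genes. The median log2 fold change of the 35 genes was -0.61, with a range of -2.69 to 0.08, and that of all tested genes was -0.00025. The lowest value was that of Col9a3, whose exposed signals all lay below the filter level of 26.7. Its size and its place in the counts given here, Welch's test included, therefore depend on dim values. With the spike ratio as a covariate, 7 collagen genes remained lower and none was higher, against 1.73% of all tested genes lower and 0.0788% higher. In that fit 0 were higher at an unadjusted p under 0.05 as well. Welch's test on the log2 signals called 2 genes lower after adjustment, Col9a3 and Col18a1, against 1.69% of all tested genes. The methods combine such a test with a regularized test and a fold minimum, which were not run here. Scaling also mattered. Median centring, which raises the exposed arrays, left 14 of the 18 lower (8.73% of all genes lower and 29.1% higher) and ended the calls of Col5a2, Col6a1, Col6a2 and Col13a1. Quantile normalization gave 15 lower, 13 of them among the 18 (15.4% of all genes lower and 24.1% higher), and ended the calls of Col6a1, Col6a2, Col13a1, Col15a1 and Col8a2.

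**Figure D1:**
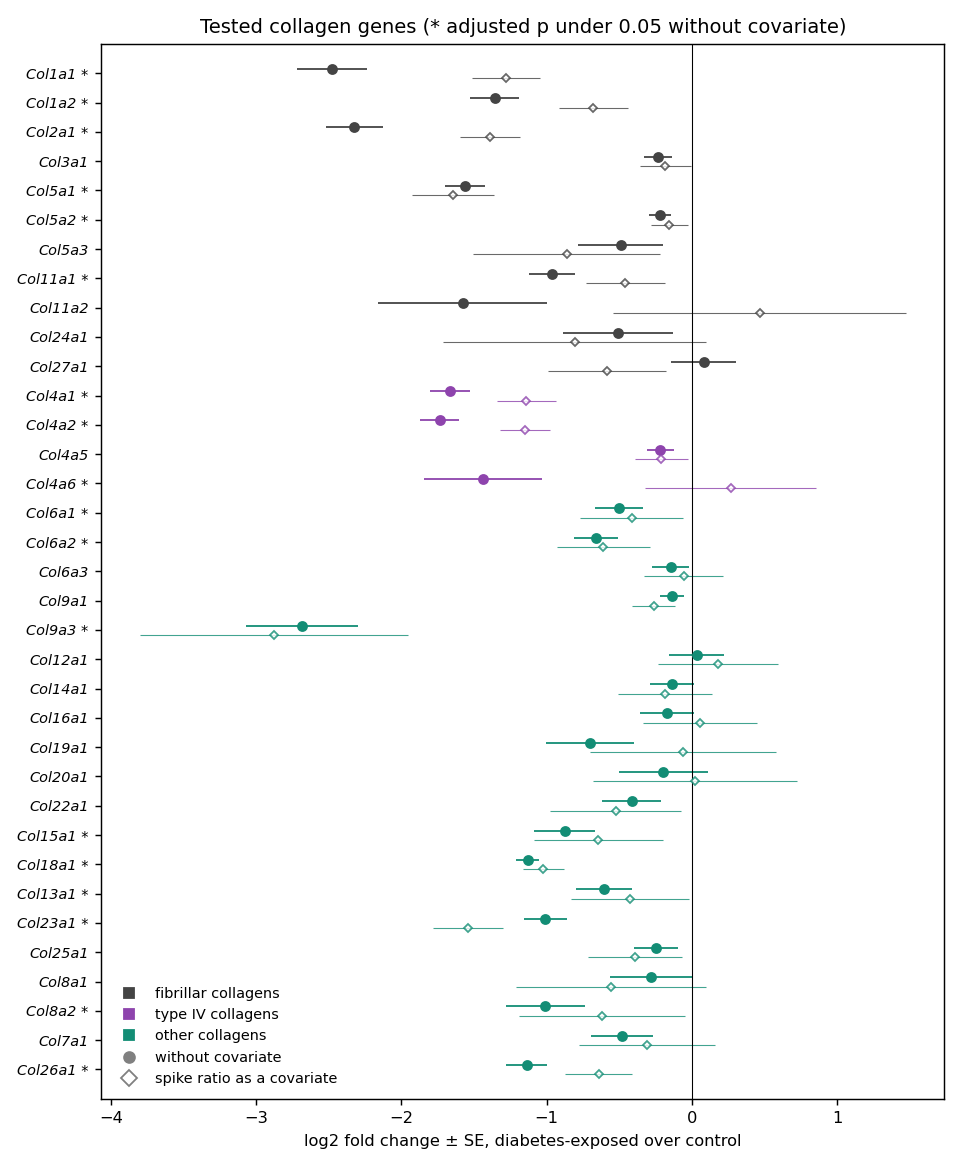
Log2 fold change, diabetes-exposed over control, of each of the 35 tested collagen genes at the probe set with the highest mean signal, coloured by class (3 pools a group). Circles are the fit without a covariate and open diamonds the fit with the spike ratio, bars are 1 standard error, and an asterisk marks an adjusted p under 0.05 without the covariate. The 18 marked genes all lie below 0 and the medians of the fibrillar, type IV and other classes are -0.96, -1.55 and -0.49.

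All 11 fibrillar genes passed the filter, 6 were lower and the other 5 did not pass the test, with a median log2 fold change of -0.96. Col1a1, which encodes the major chain of type I collagen of bone, skin and tendon, had signals of 328.0, 579.0 and 316.6 in diabetes-exposed pools and 2154.1, 2698.3 and 1778.2 in control pools. Every control pool lay more than 3-fold above every diabetes-exposed pool, and the log2 fold change was -2.48 ± 0.24 (SE, adjusted p = 0.00039). Its second probe set gave a smaller difference of -1.16 ± 0.14 (adjusted p = 0.00074). Col1a2, the partner chain of Col1a1 in type I, had 1660.2, 1913.2 and 1194.9 in diabetes-exposed pools and 4044.2, 4481.1 and 3520.3 in control pools, again without overlap, with a log2 fold change of -1.36 ± 0.17 (adjusted p = 0.00094). A further Col1a2 probe set of low signal had 137.0, 174.8 and 167.3 in diabetes-exposed pools and 162.5, 125.6 and 119.9 in control pools, an overlap (0.24 ± 0.21, adjusted p = 0.41).

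Col2a1, the chain of cartilage and notochord type II collagen, had 702.3, 1011.7 and 543.1 in diabetes-exposed pools and 3556.4, 3888.7 and 3507.9 in control pools. The log2 fold change was -2.32 ± 0.20 (adjusted p = 0.00025), and diabetes-exposed replicate 2 was the highest of its group, as it was for Col1a1 and Col1a2. Col3a1, the chain of type III collagen of soft tissues and vessel walls, had 11522.5, 11050.7 and 10546.7 in diabetes-exposed pools and 11792.0, 14724.1 and 12482.0 in control pools. These did not overlap, but the difference of -0.23 ± 0.10 did not pass the test (adjusted p = 0.097), and the sign turned under median centring (0.07).

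The type V and XI chains, which set the diameter of fibrils by copolymerising with types I and II, were unequal. Col5a1 had 375.8, 365.3 and 437.7 in diabetes-exposed pools and 1271.5, 1234.9 and 983.3 in control pools, with a log2 fold change of -1.56 ± 0.14 (adjusted p = 0.00027), and all 3 of its tested probe sets were lower. Col5a2 had 2986.7, 3063.3 and 2925.2 in diabetes-exposed pools and 3385.6, 3554.9 and 3493.9 in control pools, with a log2 fold change of -0.22 ± 0.07 (adjusted p = 0.049). That call was lost without control replicate 1, 2 or 3 (adjusted p of 0.11, 0.17 and 0.097) or without diabetes-exposed replicate 1 or 3 (0.12 and 0.13), and median centring gave 0.08. Col11a1 had 377.2, 454.5 and 309.5 in diabetes-exposed pools and 659.1, 780.1 and 760.9 in control pools, a log2 fold change of -0.96 ± 0.16 (adjusted p = 0.0025). Its partner Col11a2 had 45.1, 70.5 and 12.5 in diabetes-exposed pools and 87.2, 111.8 and 108.5 in control pools, and although the groups did not overlap the difference of -1.58 ± 0.58 did not pass (adjusted p = 0.064). Without diabetes-exposed replicate 2 the difference was -2.10 (adjusted p = 0.013), and with the spike covariate it turned to 0.47 (adjusted p = 0.88). The log2 fold changes of the remaining fibrillar genes, none of which passed, were -0.49 ± 0.29 for Col5a3, -0.51 ± 0.38 for Col24a1 and 0.08 ± 0.23 for Col27a1, whose pools overlapped (568.8, 310.9 and 429.9 in diabetes-exposed pools, 385.6, 481.2 and 345.7 in control pools). With the spike covariate 3 fibrillar genes remained lower, Col1a1 (-1.28, adjusted p = 0.043), Col2a1 (-1.39, adjusted p = 0.027) and Col5a1 (-1.65, adjusted p = 0.038), while Col1a2 had -0.68 (adjusted p = 0.23) and Col11a1 -0.46 (adjusted p = 0.50). The covariate ended the call of the second Col1a1 probe set (-0.74, adjusted p = 0.19) and of 1 of the other 2 Col5a1 probe sets (-1.30, adjusted p = 0.25), and the remaining Col5a1 probe set passed (-1.36, adjusted p = 0.037).

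**Figure D2:**
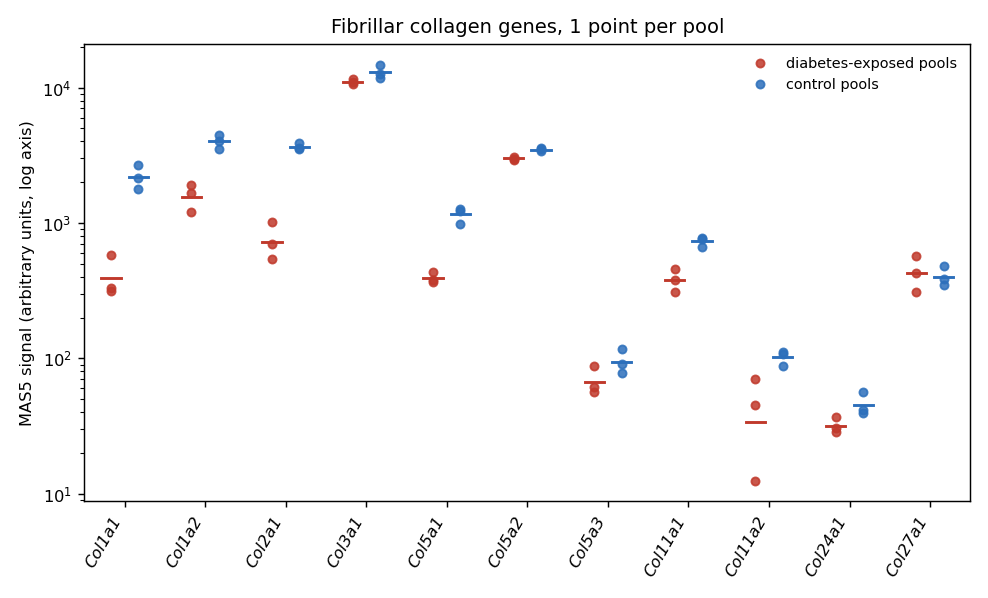
Signal of each pool in arbitrary units (log axis) for the 11 fibrillar genes, with diabetes-exposed pools left of control pools at each gene and a line at the geometric mean of each group. Col1a1, Col2a1 and Col5a1 separate widely, whereas the Col3a1 and Col5a2 pools of both groups lie close together (Col5a2, 2925.2 to 3063.3 in diabetes-exposed pools and 3385.6 to 3554.9 in control pools).

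Of the 6 type IV genes, 4 passed the filter and 3 of them were lower, with a median log2 fold change of -1.55. Col4a1 and Col4a2 encode the chains found together in nearly all basement membranes. Col4a1 had 2561.3, 2828.0 and 1952.6 in diabetes-exposed pools and 7672.2, 8445.1 and 6962.5 in control pools (-1.67 ± 0.14, adjusted p = 0.00025). Col4a2 had 784.9, 972.7 and 673.4 in diabetes-exposed pools and 2709.3, 2817.0 and 2491.9 in control pools (-1.74 ± 0.14, adjusted p = 0.0002). Both had diabetes-exposed replicate 2 highest and replicate 3 lowest of the exposed pools, and both remained lower with the spike covariate (-1.14, adjusted p = 0.04 for Col4a1 and -1.15, adjusted p = 0.027 for Col4a2). A second Col4a1 probe set fell further, with 342.6, 587.9 and 251.3 in diabetes-exposed pools and 2364.7, 2504.0 and 1771.0 in control pools (-2.56 ± 0.28, adjusted p = 0.0006), and with the covariate it had -1.14 (adjusted p = 0.07).

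Col4a5 and Col4a6 encode chains of more restricted basement membranes, and mutations of human COL4A5 cause Alport syndrome. Col4a5 had 1379.9, 1411.6 and 1342.6 in diabetes-exposed pools and 1605.7, 1479.9 and 1730.1 in control pools, a difference of -0.22 ± 0.09 that did not pass (adjusted p = 0.1), and median centring gave 0.08. Its second probe set was lower, with 238.1, 394.1 and 246.2 in diabetes-exposed pools and 567.0, 478.1 and 471.7 in control pools (-0.82 ± 0.20, adjusted p = 0.014). Col4a6 had 94.6, 144.9 and 46.8 in diabetes-exposed pools and 313.4, 243.8 and 167.5 in control pools (-1.44 ± 0.41, adjusted p = 0.024). This call was lost without control replicate 1 or 2 (adjusted p of 0.093 and 0.07) or diabetes-exposed replicate 1 or 3 (0.058 and 0.054), and with the spike covariate the value was 0.27 (adjusted p = 0.89). Its second tested probe set had 86.1, 136.4 and 63.4 in diabetes-exposed pools and 212.4, 97.6 and 166.4 in control pools and did not pass (-0.74 ± 0.37, adjusted p = 0.15). The probe sets of Col4a3 and Col4a4, the chains that join Col4a5 in the glomerular membrane, all fell below the filter.

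Col4a1 and Col4a2 are neighbours transcribed in opposite directions, as are Col4a5 and Col4a6. The latter have starts 1343 bases apart and had unequal log2 fold changes at the probe sets read (-0.22 and -1.44). Because Col4a1 and Col4a2 had the closest fold changes of the 9 partner pairs at the probe sets read, their start regions are printed. Each holds the 250 bases before the annotated start and the 50 bases from the start base on (RefSeq, GRCm38.p6). The Col4a1 window is chr8:11312777-11313076 on the minus strand and the Col4a2 window is chr8:11312555-11312854 on the plus strand. The annotated starts are at base 11312826 for Col4a1 and base 11312805 for Col4a2. They lie 21 bases apart, each on the transcribed side of the other, so that the annotated transcripts overlap at their starts with no gap between. The 78 bases that the windows share, read in opposite directions, are in capitals.
Col4a1: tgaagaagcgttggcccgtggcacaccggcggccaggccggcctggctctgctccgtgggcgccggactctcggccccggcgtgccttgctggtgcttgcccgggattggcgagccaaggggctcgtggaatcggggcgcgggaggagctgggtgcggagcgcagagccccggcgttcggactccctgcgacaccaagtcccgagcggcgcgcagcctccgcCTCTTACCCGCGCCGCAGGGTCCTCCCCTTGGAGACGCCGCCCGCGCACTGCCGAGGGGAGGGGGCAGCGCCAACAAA
Col4a2: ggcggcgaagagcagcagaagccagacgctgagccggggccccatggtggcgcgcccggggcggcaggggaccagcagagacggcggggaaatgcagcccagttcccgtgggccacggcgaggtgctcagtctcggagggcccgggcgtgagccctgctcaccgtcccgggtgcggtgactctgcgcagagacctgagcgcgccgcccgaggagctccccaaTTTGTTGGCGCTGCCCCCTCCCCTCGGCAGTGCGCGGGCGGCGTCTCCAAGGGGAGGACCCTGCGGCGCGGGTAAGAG
The shared stretch holds a match to the GC box (GGGCGG, or CCGCCC on the other strand). It begins at position 10 of Col4a1 and position 8 of Col4a2, with the start base counted as 1, and so lies after both annotated starts. The window of Col4a2 also holds a CCAAT box 32 bases before its start, and that of Col4a1 holds 1 in reverse (ATTGG) 145 bases before its start. These matches are letters found in a window and are not shown to be bound.

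The start regions of Col1a2, Col5a1 and Col3a1 are shown because Col1a2 and Col5a1 were at least 2-fold lower and Col3a1 did not pass. Those of Col1a1, Col2a1 and Col5a2 were not used here. The Col1a2 window is chr6:4505368-4505667, the Col5a1 window chr2:27886175-27886474 and the Col3a1 window chr1:45311288-45311587, all on the plus strand. Capitals mark matches on either strand to the CCAAT box, the GC box and the TATA box (TATAAA).
Col1a2: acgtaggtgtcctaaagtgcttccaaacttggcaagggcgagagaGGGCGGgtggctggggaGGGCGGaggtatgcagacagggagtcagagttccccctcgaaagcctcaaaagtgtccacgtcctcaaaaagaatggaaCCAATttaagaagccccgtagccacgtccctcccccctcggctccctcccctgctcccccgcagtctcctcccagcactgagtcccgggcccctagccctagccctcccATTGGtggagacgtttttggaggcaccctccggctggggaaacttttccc
Col5a1: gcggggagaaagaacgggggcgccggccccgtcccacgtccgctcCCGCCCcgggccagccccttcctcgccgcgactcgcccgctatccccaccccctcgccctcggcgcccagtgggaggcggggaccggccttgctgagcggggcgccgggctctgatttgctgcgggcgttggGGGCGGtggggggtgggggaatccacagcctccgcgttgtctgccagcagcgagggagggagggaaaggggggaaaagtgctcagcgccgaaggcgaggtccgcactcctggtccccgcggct
Col3a1: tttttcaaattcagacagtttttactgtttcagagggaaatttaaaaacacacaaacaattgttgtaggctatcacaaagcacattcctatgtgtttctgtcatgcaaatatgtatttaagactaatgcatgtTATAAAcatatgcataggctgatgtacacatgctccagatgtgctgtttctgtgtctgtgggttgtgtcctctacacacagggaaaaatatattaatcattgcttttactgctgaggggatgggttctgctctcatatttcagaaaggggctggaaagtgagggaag
Col1a2 held a GC box 205 and 188 bases before the start, a CCAAT box 109 bases before it and a reversed CCAAT box that begins at the start base. Col5a1 held GC boxes 205 and 73 bases before the start, and Col3a1 held only a TATAAA match 117 bases before the start among these 3 motifs. Windows were found for 33 of the 42 genes, with 36 starts in all, of which 15 belong to genes that were lower and 15 to tested genes that did not pass. The GC box was in 11 of the 15 starts of lower genes and in 8 of the 15 others, against 35.7% of all promoters of the same length. CCAAT was in 5 and 6 of them, against 37.4% of all promoters, TATAAA in 1 and 2, against 13.6%, and the core of the hypoxia response element (ACGTG, or CACGT on the other strand) in 2 and 1, against 19.6%.

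Of the 25 genes of other types, 20 passed the filter, 9 were lower and the other 11 did not pass, with a median log2 fold change of -0.49. Both tested multiplexins, collagens XV and XVIII of the basement membrane zone, were lower. Col18a1, whose end fragment is the angiogenesis inhibitor endostatin, had 1539.5, 1607.5 and 1532.2 in diabetes-exposed pools and 3405.7, 3537.9 and 3293.5 in control pools (-1.13 ± 0.08, adjusted p = 0.00018), and the pools of each group were close to one another. It remained lower with the spike covariate (-1.02, adjusted p = 0.021), as did its second probe set (-2.03 ± 0.17 without and -1.21 with the covariate, adjusted p of 0.00025 and 0.028). Col15a1 had 195.4, 168.0 and 130.9 in diabetes-exposed pools and 368.5, 275.3 and 261.0 in control pools (-0.87 ± 0.21, adjusted p = 0.012), a call lost without control replicate 1 (adjusted p = 0.055).

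Among the transmembrane collagens, Col23a1 had 403.1, 284.1 and 358.8 in diabetes-exposed pools and 704.4, 656.8 and 723.6 in control pools (-1.01 ± 0.15, adjusted p = 0.0016). It was lower still with the spike covariate (-1.54, adjusted p = 0.029), and diabetes-exposed replicate 2 was the lowest pool, unlike in Col1a1, Col2a1, Col4a1 and Col4a2. Its second tested probe set had 279.0, 300.8 and 213.9 in diabetes-exposed pools and 633.8, 504.6 and 410.1 in control pools (-0.96 ± 0.20, adjusted p = 0.0064), with replicate 2 the highest of the exposed pools, and with the covariate it had -0.40 (adjusted p = 0.67). A Col23a1 probe set left out by the filter had 2.4, 2.3 and 4.1 in diabetes-exposed pools and 119.9, 131.0 and 50.6 in control pools. Col13a1, an adhesion collagen of cell-matrix junctions, had 142.3, 198.6 and 201.8 in diabetes-exposed pools and 239.0, 287.1 and 293.3 in control pools (-0.61 ± 0.19, adjusted p = 0.037), a call lost without control replicate 1, 2 or 3 (adjusted p of 0.055, 0.12 and 0.092) or diabetes-exposed replicate 1 or 3 (0.11 and 0.051). Col25a1 had a log2 fold change of -0.25 ± 0.15 and did not pass, and the sign turned under median centring (0.05) and quantile normalization (0.07).

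The type VI chains form beaded filaments around cells. Col6a2 had 245.9, 279.8 and 274.1 in diabetes-exposed pools and 458.3, 356.8 and 456.1 in control pools (-0.66 ± 0.15, adjusted p = 0.0096). Col6a1 had 180.7, 182.3 and 188.5 in diabetes-exposed pools and 262.2, 300.0 and 224.1 in control pools (-0.50 ± 0.17, adjusted p = 0.043), and leaving out control replicate 1 or 2 or diabetes-exposed replicate 1, 2 or 3 ended the call (adjusted p of 0.12, 0.17, 0.1, 0.061 and 0.087). Col6a3, their partner, had 383.0, 358.7 and 333.3 in diabetes-exposed pools and 410.9, 416.9 and 362.3 in control pools, an overlap (-0.15 ± 0.13, adjusted p = 0.42), with 0.14 after quantile normalization, 0.15 after median centring and 0.07 after loess. Neither Col6a1 (-0.41 ± 0.36, adjusted p = 0.66) nor Col6a2 (-0.61 ± 0.32, adjusted p = 0.42) passed with the spike covariate. The standard errors of both were larger in that fit, while the differences changed little.

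Of the 8 tested fibril-associated collagens, which sit on the surface of fibrils, 1 was lower, with a median of -0.18. Col9a3, a chain of the type IX collagen that coats type II fibrils, had 18.2, 12.8 and 13.4 in diabetes-exposed pools and 104.8, 99.3 and 79.9 in control pools (-2.69 ± 0.39, adjusted p = 0.0015). All 3 exposed signals lay below the filter level of 26.7, so this fold depends on dim values, and with 32 added to each signal it was -1.43. Its second tested probe set overlapped between the groups (5.8, 33.9 and 63.4 in diabetes-exposed pools, 22.5, 31.5 and 65.8 in control pools). Col9a1, its partner, had 3599.5, 3295.6 and 3352.3 in diabetes-exposed pools and 3499.9, 3798.6 and 3973.9 in control pools (-0.14 ± 0.08, adjusted p = 0.24), and this was 0.16 after median centring and -0.28 after quantile normalization, which passed (adjusted p = 0.013). A second Col9a1 probe set was lower, with 354.6, 490.2 and 313.4 in diabetes-exposed pools and 838.3, 878.1 and 892.0 in control pools (-1.20 ± 0.17, adjusted p = 0.0013). Log2 fold changes of Col12a1, Col14a1, Col16a1, Col19a1, Col20a1 and Col22a1 spanned -0.70 (Col19a1) to 0.03 (Col12a1), and none passed.

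Col26a1 had 951.4, 1035.2 and 707.9 in diabetes-exposed pools and 1953.9, 2071.2 and 1833.7 in control pools (-1.14 ± 0.14, adjusted p = 0.00097). Col8a2, a short-chain network collagen known from vessel walls and the cornea, had 129.3, 103.3 and 68.6 in diabetes-exposed pools and 201.0, 229.2 and 161.7 in control pools (-1.01 ± 0.27, adjusted p = 0.02), a call lost without control replicate 1 or 2 or diabetes-exposed replicate 3 (adjusted p of 0.066, 0.079 and 0.054). Its partner Col8a1 had 53.5, 48.6 and 59.6 in diabetes-exposed pools and 68.7, 62.6 and 64.6 in control pools, which did not overlap but did not pass (-0.28 ± 0.28, adjusted p = 0.48), and the sign turned under median centring (0.02). Col7a1, of the anchoring fibrils of skin, had -0.48 ± 0.21 and did not pass (adjusted p = 0.11). With the spike covariate, Col26a1 (-0.64, adjusted p = 0.24), Col15a1 (-0.64, adjusted p = 0.56) and Col8a2 (-0.62, adjusted p = 0.68) no longer passed, and of the other types Col18a1 and Col23a1 did.

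**Figure D3:**
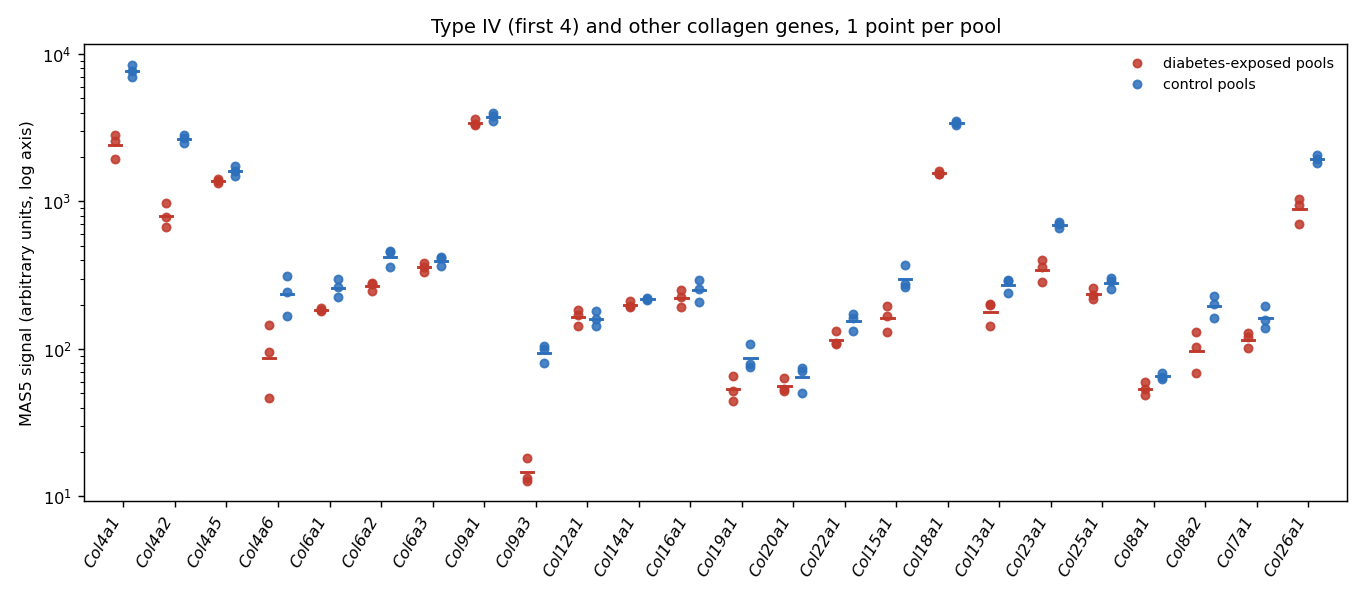
Signal of each pool in arbitrary units (log axis) for the 4 tested type IV genes and the 20 of other types, with diabetes-exposed pools left of control pools at each gene and a line at the geometric mean of each group. The Col18a1, Col23a1 and Col26a1 groups are separate, whereas the Col6a3 and Col9a1 groups overlap.

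The remaining members were dim. The 24 probe sets that did not pass the filter include every probe set of Col4a3, Col4a4, Col6a4, Col6a5, Col9a2, Col17a1 and Col10a1. For Col9a2, the remaining type IX chain, signals were 5.6, 4.3 and 10.1 in diabetes-exposed pools and 16.0, 62.5 and 21.3 in control pools. Col10a1, the collagen of hypertrophic cartilage, had at most 5.7 in diabetes-exposed pools and at most 3.5 in control pools.

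Probe sets of 1 gene can read different stretches of its transcript. Of the 58 tested collagen probe sets, 30 were lower and none was higher, against 21.8% and 14.4% of all tested probe sets (0 collagen genes were higher at an unadjusted p under 0.05 at the gene's probe set), and 9 remained lower with the spike covariate, against 1.11%. Of the 20 genes with more than 1 tested probe set, 8 had all of them lower (Col1a1, Col5a1, Col5a2, Col11a1, Col4a1, Col6a2, Col18a1 and Col23a1), 5 had only some lower (Col1a2, Col4a5, Col4a6, Col9a1 and Col9a3) and 7 had none. The matching shares over all genes with several tested probe sets were not computed. No collagen gene had probe sets that passed in opposite directions. Of the 18 lower genes, 11 had diabetes-exposed replicate 2, the exposed pool with the lowest 3′ to middle spike ratio, as the highest of the exposed pools, against 55.4% of all lower genes.

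**Figure D4:**
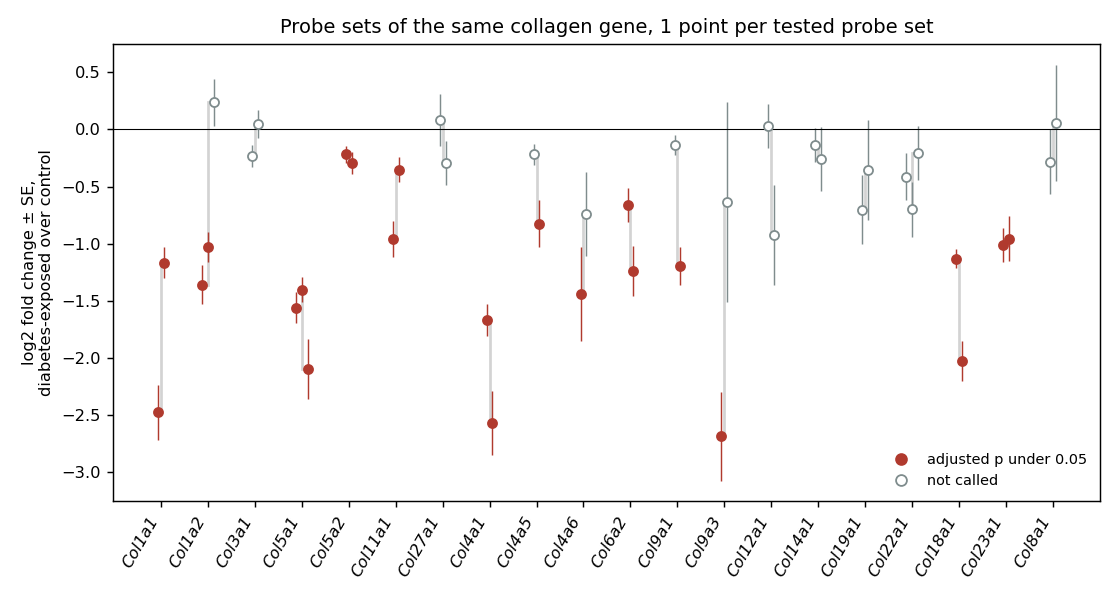
Log2 fold change, diabetes-exposed over control, of each tested probe set for the 20 collagen genes with more than 1, with bars of 1 standard error (3 pools a group) and filled points for an adjusted p under 0.05. Probe sets of Col4a1 (-1.67 and -2.56), Col9a1 (-0.14 and -1.20) and Col1a1 (-2.48 and -1.16) lie apart.

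Chains that build 1 collagen type were compared within pools, as the log2 signal of 1 chain minus that of its partner, over 9 pairs. With 3 against 3 pools the two-sided exact permutation test cannot go below 0.1, and the smallest p adjusted over the 9 pairs was 0.18, so that no pair could pass. For 5 pairs the groups did not overlap at the probe set read for each gene. No share was computed over other pairs of genes. Among single tested genes, every diabetes-exposed pool lay below every control pool in 26.5% and above in 25.9%. Col1a1 was lower relative to Col1a2 in diabetes-exposed pools by 2.17-fold (-1.12 ± 0.20 on the log2 scale, SE, exact p = 0.1), but over the 6 pairs of tested probe sets of these genes the difference ran between -2.71 and 0.19. Col5a1 was lower relative to Col5a2 by 2.54-fold (-1.34 ± 0.16, exact p = 0.1), and over their 6 pairs of probe sets the difference stayed between -1.88 and -1.11. Col8a1 minus Col8a2 was 0.73 ± 0.37 (exact p = 0.1) and 0.06 with the spike covariate, and Col6a1 minus Col6a3 was -0.36 ± 0.10 (exact p = 0.1) and -0.36 with the covariate. For Col9a1 and Col9a3 no size of the difference can be given, since the exposed Col9a3 signals lay below the filter level. With 32 added to each signal, Col9a1 minus Col9a3 was 1.30, and it was -0.56 at the second probe set of each. Col4a1 minus Col4a2 was 0.07 ± 0.06 (exact p = 0.4), and -0.83 with the second Col4a1 probe set. The groups overlapped for Col4a5 minus Col4a6 (1.22 ± 0.55, exact p = 0.2), Col6a1 minus Col6a2 (0.16 ± 0.24, exact p = 0.6) and Col11a1 minus Col11a2 (0.62 ± 0.60, exact p = 0.4).

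The other genes that act on collagen were read against the shares of all tested genes, 17.6% higher and 19.9% lower. Of the 15 tested genes that hydroxylate or glycosylate chains, 2 were higher and 3 lower, shares near those of all genes, with a median log2 fold change of -0.10. Ppib, the prolyl isomerase cyclophilin B of the chain-modifying complex, had 14722.7, 13132.7 and 15803.5 in diabetes-exposed pools and 10222.7, 10024.0 and 10652.0 in control pools (0.50 ± 0.09, adjusted p = 0.0032). P3h3, of the prolyl 3-hydroxylase family, had 131.1, 162.0 and 151.7 in diabetes-exposed pools and 396.7, 429.7 and 338.0 in control pools (-1.39 ± 0.17, adjusted p = 0.00079). The lysyl hydroxylase genes Plod2 (0.37, adjusted p = 0.03) and Plod3 (-0.49, adjusted p = 0.022) moved in opposite directions. Plod2 did not pass without control replicate 1 or 2 or diabetes-exposed replicate 1 (adjusted p of 0.12, 0.084 and 0.099), nor Plod3 without control replicate 1 or 3 or diabetes-exposed replicate 1 or 3 (0.075, 0.059, 0.08 and 0.078). Of the 15 tested genes of procollagen folding and export, 4 were higher and 1 lower, against 17.6% and 19.9% of all genes, with a median of 0.12. Kdelr2, the receptor that returns chaperones to the endoplasmic reticulum (0.66, adjusted p = 0.0038), and Trappc2, whose human counterpart acts in procollagen export (0.71, adjusted p = 0.0049), were higher, and Creb3l2, a transcription factor of secretory genes in cartilage, was lower (-0.76, adjusted p = 0.0037).

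Outside the cell, 4 of 9 tested genes of propeptide cleavage and cross-linking were lower, against 19.9% of all tested genes, and the other 5 did not pass, with a median of -0.30. Bmp1, which removes the C-propeptide of procollagen, had 471.0, 503.0 and 483.1 in diabetes-exposed pools and 906.6, 980.8 and 768.7 in control pools (-0.86 ± 0.12, adjusted p = 0.0014), and Loxl1, of the lysyl oxidase family, had -0.69 (adjusted p = 0.0081). Of 14 tested collagen-binding matrix genes, 1 was higher and 3 were lower, the lower share near that of all genes, with a median of 0.05. The basement membrane protein gene Nid2 (-1.47, adjusted p = 0.003) and fibronectin, Fn1 (-0.57, adjusted p = 0.0016), were lower, and lumican, Lum, was higher (0.35, adjusted p = 0.03), a call lost without control replicate 1 or 2 or diabetes-exposed replicate 1 or 3 (adjusted p of 0.12, 0.065, 0.06 and 0.051). Of 8 tested collagen receptors, 4 were lower, against 19.9%, and the other 4 did not pass, with a median of -0.51. Ddr1, a receptor tyrosine kinase that binds collagen, had 1854.0, 1324.5 and 2017.5 in diabetes-exposed pools and 4924.7, 5016.0 and 4296.5 in control pools (-1.47 ± 0.15, adjusted p = 0.00051), and the endocytic receptor gene Mrc2 had -1.10 (adjusted p = 0.0011).

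Of 9 tested genes of collagen breakdown, 2 were lower, a share near the 19.9% of all tested genes, and the other 7 did not pass, with a median of -0.31. These were the inhibitor Timp2 (-0.38, adjusted p = 0.0094) and the gelatinase Mmp2 (-0.43, adjusted p = 0.015), of which Timp2 did not pass without control replicate 1 (adjusted p = 0.051) and Mmp2 not without control replicate 1 or 2 or diabetes-exposed replicate 1 or 3 (0.052, 0.071, 0.061 and 0.051). Of 12 tested regulators of collagen genes, 1 was higher and 2 were lower, not above the shares of all genes (17.6% and 19.9%), with a median of -0.23. Tgfb1, a growth factor that raises collagen transcription in fibroblasts, had 106.0, 83.2 and 39.1 in diabetes-exposed pools and 485.6, 405.0 and 291.7 in control pools (-2.46 ± 0.37, adjusted p = 0.0017), and its receptor gene Tgfbr2 had -0.82 (adjusted p = 0.0011). Ccn2, a matrix protein gene induced by the same factor, was higher (0.46, adjusted p = 0.023), a call lost without control replicate 1 or 2 or diabetes-exposed replicate 1 or 3 (adjusted p of 0.08, 0.067, 0.073 and 0.079). With the spike covariate, 1 gene of all 7 lists passed, Ddr1 (-2.08, adjusted p = 0.012). In that fit the differences themselves were small for Nid2 (-0.15), Plod3 (-0.003), Ccn2 (-0.03), Mmp2 (-0.07), Kdelr2 (0.15) and Ppib (0.20). They were not smaller than without the covariate for Loxl1 (-0.89), Lum (0.57), Plod2 (0.41) and Timp2 (-0.38). After quantile normalization Loxl1 and Plod3 did not pass (adjusted p of 0.075 and 0.081).

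Markers of the tissues that transcribe collagens were measured on the same arrays, on which 19.9% of all tested genes were lower and 17.6% higher. Of 14 mesenchyme, sclerotome and limb bud markers, all passed the filter, 5 were lower (Prrx1, Tcf15, Osr1, Foxc1 and Foxc2) and 1 was higher (Meox2), and their summed signal was 13018 to 14644 in diabetes-exposed pools and 16427 to 17119 in control pools. The calls of Osr1 and Meox2 were lost without control replicate 1 or 2 or diabetes-exposed replicate 1 or 3 (adjusted p of 0.14, 0.1, 0.086 and 0.065 for Osr1, and of 0.062, 0.079, 0.076 and 0.071 for Meox2), and those of Prrx1 and Tcf15 without control replicate 2 (0.055 and 0.06). With the spike covariate, Foxc1 (-1.76, adjusted p = 0.015) and Foxc2 (-1.30, adjusted p = 0.036) remained lower and no other marker of this list passed. Of 9 endothelial markers, Cdh5 and Esam were higher and Pecam1 and Tie1 lower, with sums of 4598 to 5714 in diabetes-exposed pools and 4911 to 5020 in control pools. Pecam1 did not pass without control replicate 1, 2 or 3 or diabetes-exposed replicate 1 or 3 (adjusted p of 0.078, 0.094, 0.067, 0.11 and 0.11), nor after quantile normalization (0.08), and had 0.50 with the spike covariate, against -1.02 without. Cdh5 did not pass without control replicate 2 or diabetes-exposed replicate 1 or 2 (0.072, 0.081 and 0.055). Of 6 cartilage and notochord markers 4 were tested, of which Shh was lower, with sums of 3038 to 3502 in diabetes-exposed pools and 3636 to 4011 in control pools. In the fit without a filter the dim marker Comp was lower (-1.84, adjusted p = 0.041) and the dim marker Matn1 did not pass (1.53, adjusted p = 0.37). Of 6 epithelial markers 3 were higher (Epcam, Krt8 and Krt18), with sums of 6590 to 8169 in diabetes-exposed pools and 4108 to 4943 in control pools, and Epcam did not pass without control replicate 2 (adjusted p = 0.056). Of 8 placental and decidual markers 3 were tested, with sums of 159.4 to 187.0 in diabetes-exposed pools and 5797.4 to 6673.0 in control pools. That difference lay in the decidual prolactin gene Prl8a2, with 39.0, 39.3 and 30.7 in diabetes-exposed pools and 6522.1, 5698.9 and 6412.2 in control pools (-7.42 ± 0.14, adjusted p = 9.7e-08). Psg21 and Psg23 did not pass. The markers Tpbpa, Ctsq, Ceacam11, Dcpp1 and Igfbp1 were below the filter, and none of them passed in the fit without a filter. The part of these markers in the collagen differences was not tested.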

How the data were processed

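The members, lists and tests were chosen with earlier results of these data known. The 6 arrays were of 1 colour, and the authors deposited linear signal intensity values, 1 per probe set, made per the labels with GCOS and MAS5 (versions not given in the sources used here) and scaled to a common trimmed mean. No depth applies to arrays, and the number of pools limits the precision.

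Linear models with a trended, moderated variance were fitted to the log2 signals in limma 3.58.1 (R 4.3.3). Control probe sets (64) and the dimmest 33.3% by mean log2 signal were left out, and p-values were adjusted by Benjamini-Hochberg over 30024 probe sets. A gene was read at its tested probe set of highest mean. Of all probe sets, 9211 had no symbol and 932 several, and these name no gene here. Partner chains were compared by exact permutation over pools. The spike covariate was the mean over 8 pairs of middle and 3′ poly-A spike probe sets.

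Every collagen gene was accounted for. Pool values were given for genes with an adjusted p under 0.05, their partner chains and genes of which only some probe sets passed. Up to 2 higher and 2 lower genes of each pathway list were named by smallest adjusted p. Alternatives covered scaling, pseudocount, filter, variance model, probe set choice, covariate, each pool left out, a replicate block and Welch's test alone. Sequences came from RefSeq (GRCm38.p6), matched by symbol. The fit was tested on simulated data of 30024 probe sets. It recovered 40 of 100 changes of 2-fold and 67 of 100 of 4-fold, with 6 false calls among 113. Only these changes were simulated, whereas 36.2% of the tested probe sets were called in the data. The adjusted p threshold was therefore harder to reach in the simulation, and its recovery does not measure that of the reported fit. A gene that did not pass is not shown to be unchanged. Nothing in the labels says whether embryos of different pools shared a dam, so p-values measure the spread between these pools only.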

Additional observations from a re-analysis of the deposited data

Results flagged for a closer look

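Probe sets outside the tested values were examined for differences the other way. In 3 dim collagen probe sets that the filter left out, every diabetes-exposed pool lay above every control pool. For a second probe set of Col25a1, a transmembrane collagen, signals were 68.4, 33.2 and 43.2 in diabetes-exposed pools and 25.1, 7.9 and 15.0 in control pools, a log2 fold change of 1.68 that did not pass in the fit without a filter (adjusted p = 0.082). A Col12a1 probe set had 3.0, 2.8 and 5.0 in diabetes-exposed pools and 2.6, 0.6 and 2.1 in control pools (1.23, adjusted p = 0.36). Col10a1 had 4.4, 3.6 and 5.7 in diabetes-exposed pools and 3.5, 2.0 and 1.9 in control pools (0.92, adjusted p = 0.45). The reverse, every diabetes-exposed pool below every control pool, held for left-out probe sets of Col9a2, Col14a1, Col17a1 and Col23a1. That of Col23a1 was lower in the fit without a filter (-5.03, adjusted p = 0.0012). Over all tested probe sets, every diabetes-exposed pool lay above every control pool in 21.9% and below in 28%. The shares over all probe sets left out by the filter were not computed.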

How the results depend on the processing

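The 18 collagen genes called lower became 7 once the spike ratio was added as a covariate, and 2 by Welch's test, and leaving out each pool in turn gave 12 to 18. With the covariate a call could be lost without a smaller difference, as for Col9a3 (-2.69 ± 0.39 without and -2.88 ± 0.92 with it). The count of genes called higher stayed at 0 under every alternative run. Over the 18 alternatives, 12 of the 18 genes were called without each pool in turn, and 10 under all except Welch's test and the spike covariate (Col9a3 was not tested with 50% of probe sets filtered out). Scaling moved the median of all genes by 0.30 under median centring, by 0.14 under quantile normalization and by 0.08 under loess, and the collagen medians shifted with it. The fibrillar median of -0.96 was -0.66 under median centring, -0.70 under quantile normalization, -0.79 under loess, -1.16 with 50% of probe sets filtered out, -0.66 when a gene's probe sets were averaged, -0.68 with the covariate and -1.10 to -0.82 with pools left out. The type IV median of -1.55 was -1.25 under median centring, -0.83 with no filter, -0.68 with the covariate, -1.13 with types VII, XV and XVIII counted in, and -1.80 to -1.26 with pools left out. The median of the other types, -0.49, was -0.19 under median centring, -0.23 under quantile normalization, -0.27 under loess, -0.41 with 32 added to the signals, -0.42 with the covariate and -0.57 to -0.41 with pools left out. Among genes with a called probe set and their partners, the sign turned for Col5a2 (0.081), Col4a5 (0.081), Col6a3 (0.15), Col9a1 (0.16) and Col8a1 (0.017) under median centring, for Col6a3 under quantile normalization (0.14) and loess (0.065), and for Col4a6 (0.27) and Col11a2 (0.47) with the covariate. Of the other genes, none of which was called, it turned for Col3a1 (0.068), Col14a1 (0.16), Col16a1 (0.13), Col20a1 (0.10) and Col25a1 (0.049) under median centring, for the last 4 under quantile normalization, for Col14a1 and Col16a1 under loess, and for Col27a1 (-0.59), Col16a1 (0.055) and Col20a1 (0.022) with the covariate. The cause was not tested. Shared replicate numbers did not mark a known pairing: deviations of same-numbered pools correlated by -9.16e-06, 0.0761 and 0.118 (diabetes-exposed replicate 1 correlated best with control replicate 3), and with the replicate number as a block 17 collagen genes were lower. Partner pairs without overlap numbered 5 of 9 in the reported values, 5 after quantile normalization, 5 with 32 added to the signals (a setting chosen after seeing the data, as were the other probe sets and the covariate for these pairs) and 5 to 7 with pools left out.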
